A study of Homo sapiens with 24 samples.

Results

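The effect of recombinant Wnt3a on gene expression in HepaRG cells was measured in the presence of FZD8_CRD, a soluble cysteine-rich domain of Frizzled-8 that binds Wnt proteins. The comparison takes 6 of the 24 arrays of the series, chosen by their titles: 3 untransfected cultures given FZD8_CRD together with Wnt3a (CRD + Wnt3a arrays) and 3 untransfected cultures given FZD8_CRD alone (CRD arrays). The question of such a design is how cells respond to Wnt3a when a soluble domain that binds Wnt proteins is also in the medium. HepaRG is an established human liver progenitor line that can form cells with hepatocyte features and cells with biliary features. All 8 conditions of the series had 3 arrays from independent cultures: no treatment, control siRNA, an siRNA against beta-catenin (CTNNB1) and FZD8_CRD, each alone or combined with Wnt3a. In the groups used here the cells were not transfected, Wnt3a was mouse protein at 200 ng/ml, FZD8_CRD was mouse protein at 300 ng/ml, and treatment lasted 72 h in serum-free medium with albumin. RNA was hybridized to one-colour Agilent arrays.

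In the canonical pathway, a Wnt protein binds a Frizzled receptor and an LRP co-receptor at the cell surface, which holds back the destruction complex of AXIN, APC and GSK3 and lets beta-catenin enter the nucleus and act with TCF/LEF factors. Feedback genes such as AXIN2, RNF43 and NKD1 are switched on by this route in many tissues, and some Wnt proteins also signal through Frizzled without beta-catenin. In the liver, Wnt signaling is known for setting the zones of the lobule, for progenitor growth and for its activity in fibroblast-like cells that make matrix.

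Each value is the log2 of a probe signal over the 75th percentile of its array (log2 level), and differences are CRD + Wnt3a minus CRD. The 75th percentile lay at intensities of 911.9, 783.8 and 780.5 on the CRD arrays and 854.8, 642.7 and 802.4 on the CRD + Wnt3a arrays, and 59.2% to 61.7% of the spots of these 6 arrays were well above background. The number of arrays limits the precision. The third CRD array stood apart from the other two: across genes it correlated with the first and second CRD arrays at r = 0.9864 and 0.9881, against 0.9948 between those arrays, and it received the lowest estimated weight of all 24 arrays, 0.19. Correlations as low were found in the untreated group, 0.9858 at the lowest, and in the group with Wnt3a alone, 0.9841. Genes are not independent replicates in these correlations. The median SD of a gene was 0.1971 over the CRD arrays, 0.1223 over the CRD + Wnt3a arrays, 0.1827 over the untreated arrays and 0.2122 with Wnt3a alone.

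The direction of that departure was measured on the genes called without the third CRD array. Of 4910 such genes with complete values, 4298 (87.5%) read nearer to the CRD + Wnt3a mean than to the mean of the first and second CRD arrays. Over all genes tested with complete values the share was 17322 of 24623 (70.3%), so most genes read this way whether called or not. The CRD + Wnt3a mean holds 3 arrays, 1 of them from the slide of the third CRD array, and the other mean 2. This can raise both shares, and a share without it was not measured. The 4910 genes were chosen on the distance of the first and second CRD arrays from the CRD + Wnt3a arrays, which can by itself raise the share. On a scale with the first and second CRD arrays at 0 and the CRD + Wnt3a arrays at 1, the median position of the third CRD array was 0.84, with quartiles of 0.66 and 1.05. It fell between the 2 sets of arrays for 2410 genes, inside the CRD + Wnt3a range for 1686 and inside the range of the other two CRD arrays for 80. Over the 24623 genes with complete values it fell inside the CRD + Wnt3a range for 11940 and inside the range of the other two CRD arrays for 5078. A range of 3 arrays takes in a further array more often than a range of 2, so these counts do not show a direction. Genes lower with Wnt3a had a median position of 0.91 and genes higher with Wnt3a 0.76. The departure of the third CRD array from the other two correlated across genes at r = 0.2 with the Wnt3a difference in cells without FZD8_CRD. Among single genes, ATF2, a transcription factor of the stress response, read -0.12, -0.01 and 4.77 on the CRD arrays and -0.25, -0.24 and -0.16 on the CRD + Wnt3a arrays, so the third CRD array alone was high. AMTN, SGCA, UGT2B4 and SERPINC1 had the next largest gaps above the nearer of the other CRD arrays, 4.26, 4.02, 3.99 and 3.89. KRT4, HAPLN1, POM121L1P, DOK7 and POM121L9P had the largest gaps below, 3.36, 2.92, 2.73, 2.7 and 2.63. What set this array apart was not tested, and every result that follows includes it unless stated.

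Markers of cell types were checked against the label. All 10 hepatocyte markers were tested, ALB being the brightest, and their summed signal in multiples of the 75th percentile was 374, 253 and 372 on the CRD arrays and 398, 389 and 384 on the CRD + Wnt3a arrays. The 7 tested of 8 biliary markers, led by KRT19, summed to 294, 302 and 388 against 387, 386 and 348. The 9 tested of 10 fibroblast, stellate and myofibroblast markers, led by DCN, summed to 38.1, 35.6 and 28.2 against 38.9, 38.8 and 38.8. Markers of both liver lineages named for this line were thus measured on all 6 arrays. Endothelial markers (5 of 8 tested, KDR brightest) summed to 1.85, 1.67 and 0.981 against 0.829, 0.783 and 0.947, and leukocyte markers (6 of 8 tested, CD68 brightest) to 3.96, 3.49 and 3.99 against 4.39, 4.06 and 4.55. TIE1, CLDN5, EMCN, LYZ, THY1 and EPCAM were not measured above background in any whole condition or lack a probe with a symbol. Called markers were 2 higher and 1 lower among hepatocyte, 0 among biliary, 3 higher among fibroblast, 1 higher and 1 lower among endothelial and 2 higher among leukocyte markers. In all, 10 of 37 tested markers were called (27%), beside 8.29% of all genes tested. Of these 10, 4 stayed called without the first, 5 without the second and 10 without the third CRD array, 5, 7 and 6 without the first, the second and the third CRD + Wnt3a array, and 6 with spike-in scaling. In such bulk samples, fewer cells of a type and less RNA per cell cannot be told apart, and the part of cell composition in the results was not tested.

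With Wnt3a in the presence of FZD8_CRD, 2044 of 24643 genes tested (8.29%) passed an adjusted p under 0.05 in limma (called): 1074 were higher (4.36%) and 970 lower (3.94%). The higher genes had a median difference of 0.65 and the lower genes -0.59. More than 2-fold differences were found for 277 higher and 176 lower genes, and more than 4-fold for 49 and 16. The 3 same-numbered pairs of arrays, each from the same slide, all moved the same way for 1008 of the higher and 914 of the lower genes. CRD and CRD + Wnt3a values did not overlap for 986 of the higher and 792 of the lower genes, against 2964 genes (12%) with all CRD + Wnt3a values higher and 2086 (8.46%) with all lower among the 24643 tested. At an unadjusted p under 0.05 there were 5046 genes. Of the 15997 tested genes with a symbol 1660 were called, 838 higher and 822 lower, a larger share than over all genes tested. Lists and markers hold only genes with a symbol, so their shares stand out less beside these counts than beside those of all genes.

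Single arrays decided much of this count. Without the first CRD array 348 genes (1.41%) were called and without the second 366 (1.49%), all among the 2044. Without the third CRD array 4916 genes (19.9%) were called, including 2028 of the 2044. Leaving out the first, the second or the third CRD + Wnt3a array gave 872, 878 and 1230 genes, of which 868, 871 and 1192 were among the 2044. With the replicate number, which is also the slide, as a block, 3299 genes (13.4%) were called, all 2044 among them. A fit on the 6 arrays alone called 0 genes in limma, with 4069 genes at an unadjusted p under 0.05. Scaling to 7 spike-in probes, which set the median difference of all genes at -0.073, left 244 genes, all among the 2044.

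**Figure D1:**
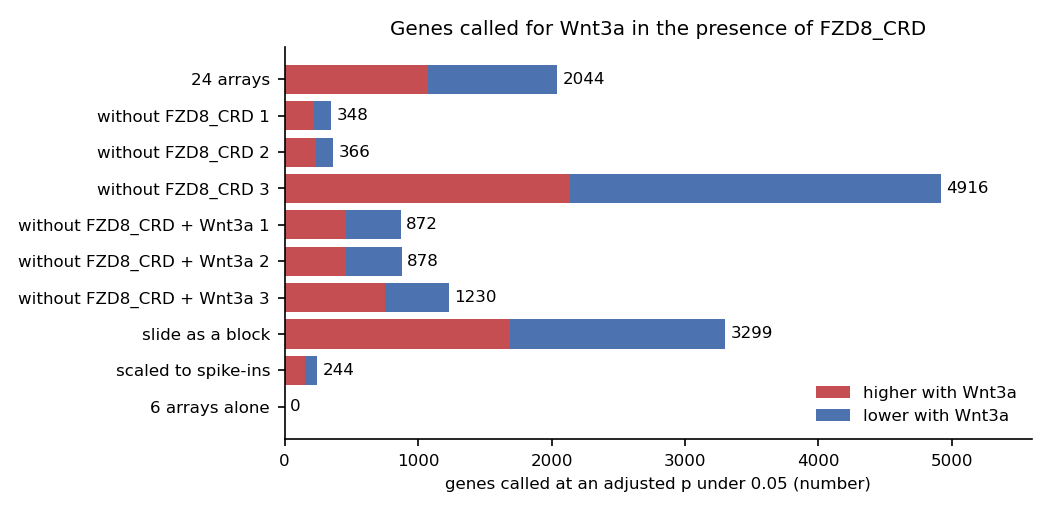
Bars give the number of genes called at an adjusted p under 0.05 for CRD + Wnt3a against CRD, split into higher (red) and lower (blue), for all 24 arrays, without each of the 6 arrays compared, with the slide as a block, scaled to spike-ins and for the 6 arrays alone. The count was 2044 with 24 arrays, 348 and 366 without the first and the second CRD array, and 4916 without the third.

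The largest rises were in IGFL1 and IGFL2, genes of the insulin growth factor-like family that lie in the same cluster on chromosome 19 and encode small secreted proteins. IGFL1 read -3.17, -3.71 and 0.27 on the CRD arrays and 2.98, 2.96 and 2.80 on the CRD + Wnt3a arrays. IGFL2 read -2.13, -2.25 and 0.38 and 3.35, 3.23 and 3.16. For both genes the CRD + Wnt3a arrays lay close together and above every CRD array, and the third CRD array lay between. IGFL1 rose by 5.11 (34.6-fold, SE 0.63, adjusted p = 0.000204, higher in 3 of 3 pairs) and IGFL2 by 4.58 (24-fold, SE 0.51, adjusted p = 8.18e-05, 3 of 3 pairs). Without the third CRD array these differences were 6.35 and 5.44. Both calls held when any single array of the 6 was left out. In the centred values deposited by the authors, IGFL1 had a difference of 4.99 and an adjusted p of 0.175, and was not called. Centred values hold no signal level, on which limma in part set the spread of a gene here. With quantile normalization the IGFL1 difference was also 4.99, with an adjusted p of 0.000154 in limma. IGFL3, of the same family, read 1.32, 1.38 and 0.42 and 2.27, 2.38 and 2.17, a rise of 1.23 (adjusted p = 0.0453) with no overlap between the groups. Its call was lost without the third CRD array, where the difference was 0.92, as it was without any other of the 6 arrays, and it was not called in the deposited values (adjusted p = 0.301).

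The start regions of IGFL1 and IGFL2 are shown because these genes of the same cluster moved together. Each runs from 250 bases before to 50 after the transcription start, on the + strand, from RefSeq on GRCh38.p14, at chr19:46229492-46229791 for IGFL1 and chr19:46147988-46148287 for IGFL2. Capitals mark a match to CTTTGAT or its reverse complement ATCAAAG, a core that TCF/LEF factors are known to bind.
IGFL1: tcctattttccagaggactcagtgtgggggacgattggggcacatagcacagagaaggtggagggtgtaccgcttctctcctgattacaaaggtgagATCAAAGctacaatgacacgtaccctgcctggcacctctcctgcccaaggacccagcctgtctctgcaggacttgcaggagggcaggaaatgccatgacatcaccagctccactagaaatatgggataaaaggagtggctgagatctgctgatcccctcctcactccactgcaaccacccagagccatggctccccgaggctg
IGFL2: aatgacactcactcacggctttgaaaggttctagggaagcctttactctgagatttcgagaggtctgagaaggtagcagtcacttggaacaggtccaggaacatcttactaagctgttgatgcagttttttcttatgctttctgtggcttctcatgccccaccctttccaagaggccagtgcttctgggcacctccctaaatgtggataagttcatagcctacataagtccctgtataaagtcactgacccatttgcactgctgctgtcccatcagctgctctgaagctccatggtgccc
The IGFL1 window held 1 match and the IGFL2 window 0. Of 35116 RefSeq promoters of this length 919 (2.62%) held a match, as did 294 of 12387 promoters of tested genes (2.37%), 13 of 653 of genes higher with Wnt3a (1.99%) and 16 of 671 of lower genes (2.38%). SP5, a Wnt feedback gene with 1 match in its window, had a difference of 0.00 (adjusted p = 1). A match describes these letters only.

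Of the 16 tested genes of the IGFL and IGF list, 6 rose and 2 fell, with a median of 0.31, against 0.02 over all genes tested. IGF2BP3, an RNA-binding protein of fetal liver, read 1.12, 1.16 and 3.22 on the CRD arrays and 3.68, 3.79 and 3.39 on the CRD + Wnt3a arrays, a rise of 1.79 (adjusted p = 0.00299), with all CRD + Wnt3a values above all CRD values. IGFBP3 and IGFBP6, binding proteins of insulin-like growth factors, rose by 0.61 and 0.63. IGFBP2, another binding protein, was high on the first and second CRD arrays: it read 5.68, 5.53 and 4.66 and 4.42, 4.52 and 4.50, a fall with a difference of -0.81 (adjusted p = 0.0173). IGFBP5 was called lower (adjusted p = 0.0483) but read above background on only 2 arrays of either group, at -3.72, -3.75 and -6.13 and -5.60, -6.13 and -5.76 with the floor at -6.13, so no size is given. IGF1R, the receptor, was just outside the threshold (difference 0.50, adjusted p = 0.05) and inside it with the slide as a block (adjusted p = 0.025). Of these 8 called genes, 3 stayed called without the first, 3 without the second and 7 without the third CRD array, and 3, 3 and 6 without the first, the second and the third CRD + Wnt3a array.

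Beyond the IGFL genes, the 12 largest rises with a symbol included muscle, matrix, keratin and liver genes. SGCA, a sarcoglycan of the muscle membrane, read -2.61, -2.76 and 1.42 on the CRD arrays and 2.61, 2.44 and 2.00 on the CRD + Wnt3a arrays. AMTN, a protein of the enamel surface, read -1.81, -1.98 and 2.44 and 2.81, 2.89 and 3.01. In both genes the first and second CRD arrays were low and the third lay near the CRD + Wnt3a arrays, without overlap. SGCA rose by 3.67 (adjusted p = 0.00224) and AMTN by 3.35 (adjusted p = 0.00619), and by 5.04 and 4.80 without the third CRD array. SGCA was not called in the deposited values (adjusted p = 0.0802). TNC, the matrix protein tenascin C, read -0.56, -0.48 and 2.48 and 3.55, 3.44 and 3.27 and rose by 2.94 (SE 0.49, adjusted p = 0.00175). KRT14, a keratin of basal epithelium, read -4.47, -4.80 and -2.02 and -0.36, -0.43 and -0.84 and rose by 3.22 (SE 0.53, adjusted p = 0.00162). For TNC and KRT14 too, the third CRD array lay between the other CRD arrays and the CRD + Wnt3a arrays. SLN, which encodes the calcium pump regulator sarcolipin, rose by 3.22, CSRP3, a muscle LIM protein, by 2.89, ZNF474 by 3.03 and CGB3, a chain of chorionic gonadotropin, by 2.91. UGT2B4, a glucuronosyltransferase of hepatocytes, rose by 3.25 and SERPINC1, antithrombin, by 3.02. In UGT2B4, at -3.50, -4.54 and 0.50 against 0.68, 0.67 and 0.86, the third CRD array was just below the CRD + Wnt3a arrays. Of the 12 largest rises, 9 stayed called without the first, 9 without the second and 12 without the third CRD array, 10 without each CRD + Wnt3a array in turn, and 12 with spike-in scaling.

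The largest falls were led by KRT4, a keratin of stratified mucosa, and DOK7, an adaptor of the neuromuscular synapse. KRT4 read 2.43, 2.54 and -0.92 on the CRD arrays and -2.50, -2.68 and -2.68 on the CRD + Wnt3a arrays. DOK7 read 1.37, 1.37 and -1.34 and -2.52, -2.64 and -2.43. The first and second CRD arrays were high and the third lay between them and the CRD + Wnt3a arrays, with no overlap. KRT4 fell with a difference of -3.96 (SE 0.53, adjusted p = 0.000284, lower in 3 of 3 pairs), and -5.10 without the third CRD array, and DOK7 with -3.00 (SE 0.43, adjusted p = 0.000662) and -3.90. AGR2, S100P and PSCA, genes of mucous and ductal epithelium, had differences of -2.19, -2.16 and -2.00. ANKRD2, a muscle ankyrin repeat protein, had -2.52, IL1RL1, the receptor of interleukin 33, -2.34, RAB31, a small GTPase of vesicle transport, -2.07, and LGALS2, a galectin, -1.93. APOB, the apolipoprotein of very low density lipoprotein, read 3.1, 3.06 and 1.12 and 0.14, -0.04 and 0.71, a difference of -2.15 (adjusted p = 0.00376), without overlap. Of the 12 largest falls, 9 stayed called without the first, 9 without the second and 12 without the third CRD array, 11, 10 and 10 without the first, the second and the third CRD + Wnt3a array, and 12 with spike-in scaling.

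**Figure D2:**
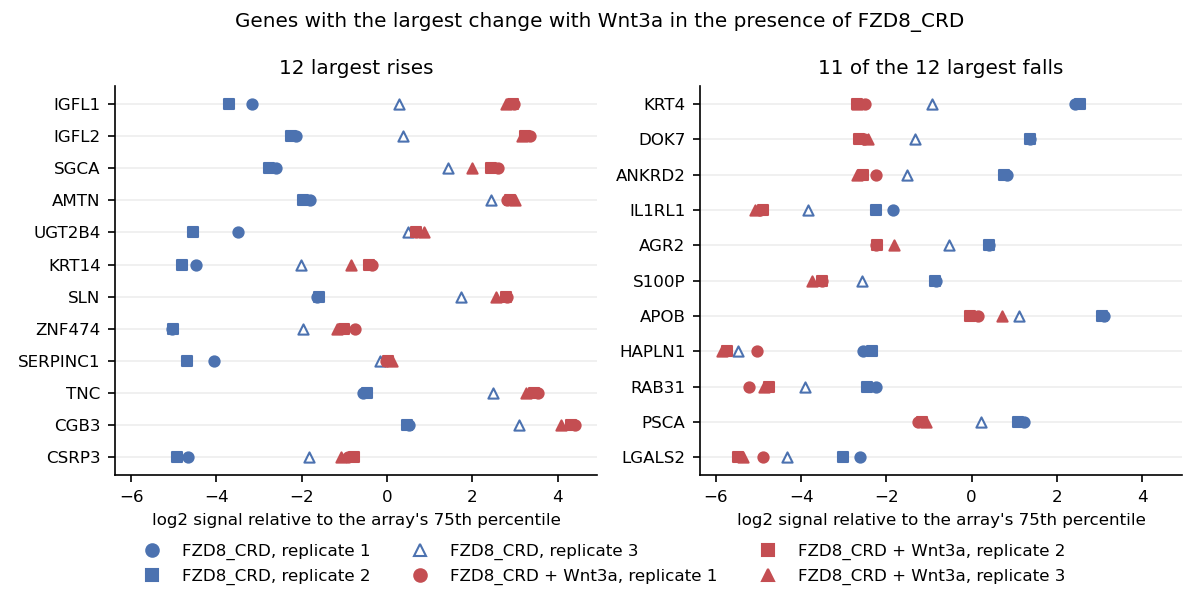
Log2 level (x axis, signal over the 75th percentile of the array) of the 12 genes with the largest rises (left) and 11 of the 12 with the largest falls (right) on the CRD arrays (blue, the third array open) and the CRD + Wnt3a arrays (red), with a circle, square and triangle for replicates 1, 2 and 3. The third CRD array of IGFL1 read 0.27, between -3.17 and -3.71 on the other two and 2.80 to 2.98 with Wnt3a.

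Among the feedback targets of the canonical pathway, 10 of 14 listed genes were tested, 1 rose and 2 fell, with a median of 0.00. RNF43, the ubiquitin ligase that removes Frizzled from the membrane, read -0.36, -0.44 and -0.24 on the CRD arrays and 0.50, 0.38 and 0.50 on the CRD + Wnt3a arrays. Every CRD + Wnt3a value lay above every CRD value and the third CRD array was close to the other two. RNF43 rose by 0.81 (1.75-fold, SE 0.10, adjusted p = 0.000216, 3 of 3 pairs), by 0.86 without the third CRD array, and was called without any single array of the 6. AXIN2, the scaffold of the destruction complex and a standard reporter of the pathway, read -0.13, -0.04 and -0.47 and -0.05, -0.06 and -0.13. Its groups overlapped, and its difference of 0.13 did not pass the test (adjusted p = 0.58). In cells without FZD8_CRD the AXIN2 difference was 0.37 (adjusted p = 0.0453), and the difference between the 2 responses was not called (adjusted p = 0.572). NKD1, which binds Dishevelled, was at the floor of -6.13 on all 6 arrays. MYC, at 3.99, 4.03 and 3.70 against 3.91, 3.89 and 3.96, overlapped between the groups (difference 0.01).

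Both feedback genes that fell encode secreted or membrane inhibitors of the pathway. DKK1, which blocks the LRP co-receptors, read 3.97, 3.87 and 3.11 on the CRD arrays and 2.85, 2.70 and 2.76 on the CRD + Wnt3a arrays. All CRD values lay above all CRD + Wnt3a values, and the third CRD array was the lowest of its group. DKK1 had a difference of -0.88 (adjusted p = 0.00495), and -1.15 without the third CRD array. APCDD1, a membrane inhibitor, was at least 2.83-fold lower, with 0 CRD + Wnt3a arrays well above background (adjusted p = 0.0111). Both calls were lost without the first or the second CRD array, DKK1 at an adjusted p of 0.0577 and 0.0527 and APCDD1 at 0.11 and 0.107, and that of APCDD1 also without the first CRD + Wnt3a array. With normexp background correction APCDD1 was not called either (adjusted p = 0.0738).

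Of 15 TCF/LEF factors and co-factors, 1 rose and 0 fell, with a median of 0.03. TCF7, a factor whose gene is itself a target of the pathway, read -2.95, -2.73 and -1.50 on the CRD arrays and -0.68, -0.64 and -0.93 on the CRD + Wnt3a arrays. The groups did not overlap, and the third CRD array was the highest of its group. TCF7 rose by 1.64 (3.12-fold, SE 0.25, adjusted p = 0.00109), by 2.09 without the third CRD array, and stayed called without any single array of the 6. LEF1, the related factor, read 0.92, 0.93 and 1.19 and 1.19, 1.21 and 1.16 and its groups overlapped (difference 0.17, adjusted p = 0.627). Without FZD8_CRD the LEF1 difference was 1.12 (adjusted p = 0.000392), and the test of the difference between the responses gave an adjusted p of 0.0811. LEF1 was higher on all 3 CRD arrays than on the untreated arrays, which read -0.28, -0.08 and 0.41.

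**Figure D3:**
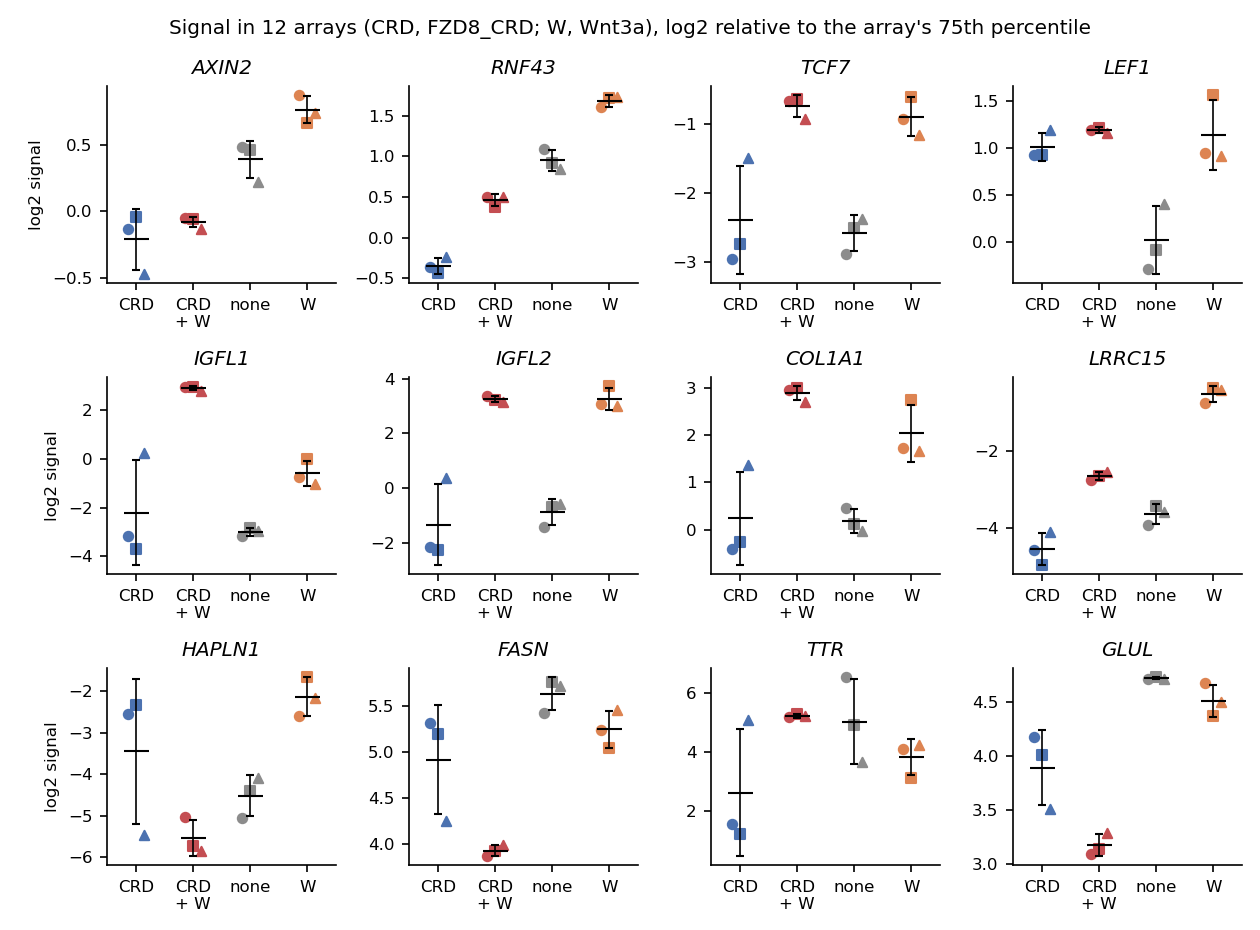
Log2 signal relative to the 75th percentile (y axis) of 12 genes on 12 arrays: FZD8_CRD (CRD), FZD8_CRD with Wnt3a (CRD + W), untreated (none) and Wnt3a alone (W); circles, squares and triangles are replicates 1, 2 and 3, bars the mean and SD of 3 arrays. RNF43 and TCF7 rose with Wnt3a in both settings, while AXIN2 and LEF1 passed the test in cells without FZD8_CRD, with differences of 0.37 and 1.12.

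Among 16 tested receptors and co-receptors 0 rose and 1 fell, FZD8, with a median of -0.01. FZD8, the gene whose protein supplied the added domain, read -2.22, -2.49 and -3.04 on the CRD arrays and -3.58, -3.54 and -3.45 on the CRD + Wnt3a arrays, a difference of -0.94 (adjusted p = 0.0423) with no overlap. Its call was lost with normexp (difference -0.6, adjusted p = 0.0786). Of 14 tested ligand and secretion genes 1 rose and 2 fell, with a median of -0.06, or -0.31 without the third CRD array. WNT7B read -4.04, -3.93 and -2.06 and -1.43, -1.51 and -2.06 and rose by 1.67 (adjusted p = 0.0142), but the third array of either group read -2.06. The other probes of WNT7B, with differences of 0.79 and 0.88, did not pass. WNT11, a ligand known for signaling without beta-catenin, read -1.36, -1.63 and -2.32 and -2.88, -2.97 and -2.85 and fell with a difference of -1.13 (adjusted p = 0.00726), without overlap. RSPO1, an enhancer of Wnt signaling, was at least 3.03-fold lower (1 CRD + Wnt3a array above background). Of 8 tested secreted inhibitors 1 fell, DKK1, and 1 rose, DKK3, by at least 1.5-fold with 2 CRD arrays above background, and their median was -0.30. Among the groups compared with and without FZD8_CRD, DKK3 passed the filter through the CRD + Wnt3a arrays alone, where it was high. The direction of DKK3 depended on the processing: it was -0.38 without a filter (adjusted p = 1), and the call was lost with quantile normalization (adjusted p = 0.208) and normexp (adjusted p = 0.631). Of the 13 genes of beta-catenin and its destruction complex 0 were called by limma and 1 passed an unadjusted p of 0.05, and their median was 0.05. CTNNB1 read 3.22, 3.38 and 4.11 and 3.54, 3.98 and 3.89 with overlap (difference 0.23, adjusted p = 0.526), and was called without the third CRD array with a difference of 0.50. In all, 9 of 74 tested Wnt pathway genes were called (12.2%, against 8.29% of all genes tested). The Wnt pathway share was near that of the tested genes with a symbol, of which 1660 of 15997 were called. Of the 9 Wnt pathway genes, 2 stayed called without the first CRD array (TCF7 and RNF43) and 2 without the second, where 1.41% and 1.49% of all genes were called. Without the third CRD array 9 stayed called, and 4, 5 and 7 without the first, the second and the third CRD + Wnt3a array. With spike-in scaling 3 stayed called.

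Collagen genes moved in both directions. Of 9 tested fibrillar collagens 3 rose and 0 fell, with a median of 0.38. COL1A1, a chain of type I collagen, read -0.40, -0.26 and 1.37 on the CRD arrays and 2.95, 2.99 and 2.71 on the CRD + Wnt3a arrays. The groups were far apart, and the third CRD array was the highest of its group. COL1A1 rose by 2.65 (6.27-fold, SE 0.33, adjusted p = 0.000216, 3 of 3 pairs), and by 3.22 without the third CRD array. COL1A2, the partner chain, was at least 4.66-fold higher, 1 CRD array being above background (adjusted p = 7.92e-05). COL5A1, a chain of type V collagen, read 4.88, 4.82 and 5.66 and 6.55, 6.40 and 6.26 and rose by 1.29 (adjusted p = 0.00114), without overlap. COL3A1, of type III collagen, read -4.58, -4.76 and -4.61 and -4.20, -4.19 and -3.71, apart but short of the threshold (difference 0.62, adjusted p = 0.112). All 3 fibrillar calls held without any single array of the 6.

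Of 25 other collagens 4 rose and 4 fell, with a median of 0.09. The basement membrane chains split: COL4A1 and COL4A2 rose by 1.00 and 0.52, while COL4A5 and COL4A6 fell, with differences of -0.70 and -1.40. COL4A6 read 4.13, 4.01 and 2.72 on the CRD arrays and 2.30, 2.15 and 2.21 on the CRD + Wnt3a arrays (adjusted p = 0.00159), with the third CRD array between the other CRD arrays and the CRD + Wnt3a arrays. COL4A1 read 1.65, 1.71 and 2.45 and 3.01, 3.03 and 2.76 (adjusted p = 0.0142), without overlap. COL8A1 and COL12A1 fell, with differences of -1.29 and -0.72, and -1.83 and -1.11 without the third CRD array, whose values of 2.89 and 3.33 lay near the CRD + Wnt3a arrays. COL10A1 and COL16A1 rose by 0.53 and 0.65. COL10A1 was not called without the third CRD array (0.33), and the second probe of COL16A1, with 0.45, did not pass. Of the 8 calls, 1 held without the first CRD array and 1 without the second (COL4A6), 7 without the third, and 4, 2 and 5 without the first, the second and the third CRD + Wnt3a array.

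Of 20 tested enzymes that fold, trim and hydroxylate collagen 5 rose and 2 fell, with a median of 0.24. BMP1, the protease that trims procollagen, read 1.48, 1.5 and 1.71 on the CRD arrays and 2.19, 2.19 and 2.21 on the CRD + Wnt3a arrays, a rise of 0.64 (adjusted p = 0.000216). P4HA2, a prolyl hydroxylase, read 3.60, 3.77 and 4.40 and 4.75, 4.80 and 4.87, a rise of 0.88 (adjusted p = 0.00327). Neither gene overlapped between the groups. The lysyl hydroxylase PLOD1, the enhancer of trimming PCOLCE2 and the collagen chaperone SERPINH1 rose by 0.61, 0.57 and 0.56. P3H2, a prolyl 3-hydroxylase, and PCOLCE had differences of -0.42 and -0.88, and -0.55 and -1.34 without the third CRD array. Over all collagens and their enzymes, 18 of 54 tested genes were called (33.3%, against 8.29% of all genes tested). Of these, 7 stayed called without the first, 7 without the second and 17 without the third CRD array, 13, 10 and 15 without the first, the second and the third CRD + Wnt3a array, and 4 with spike-in scaling.

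Of 23 tested matricellular and elastic fibre proteins, which link cells to the matrix, 10 rose, 0 fell and 13 were not called, with a median of 0.48. POSTN, periostin, read 2.97, 3.1 and 4.94 on the CRD arrays and 5.77, 5.66 and 5.56 on the CRD + Wnt3a arrays. TGFBI, a matrix protein induced by TGF-beta, read 6.51, 6.49 and 8.64 and 9.09, 9.27 and 9.05. In both, as in TNC, the third CRD array lay far above the other two but below every CRD + Wnt3a array. POSTN rose by 1.99 (adjusted p = 0.00314) and TGFBI by 1.93 (adjusted p = 0.00262), and by 2.63 and 2.64 without that array. MFAP4, a microfibril protein, read -3.10, -2.88 and -3.15 and -2.07, -1.86 and -2.08, so here the third CRD array sat with the other two, and rose by 1.04 (adjusted p = 0.00376). MFAP2 was at least 2.03-fold higher, with 0 CRD arrays above background. Among the groups compared with and without FZD8_CRD, MFAP2 passed the filter through the CRD + Wnt3a arrays alone, where it was high. It is 1 of the 10 rises. Thrombospondins THBS1 and THBS2, FN1, FBN1 and SPARC rose by 1.01, 0.62, 0.90, 0.84 and 0.77. Of the 10 calls, 6 held without the first, 6 without the second and 10 without the third CRD array, 9, 7 and 8 without the first, the second and the third CRD + Wnt3a array, and 3 with spike-in scaling.

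Of 6 tested small leucine-rich proteoglycans 0 rose and 2 fell, with a median of -0.91. This median was -0.43 with normexp and -1.44 without the third CRD array. The medians of the 3 same-numbered pairs were -1.44, -1.35 and 0.34, so the third pair had the opposite sign. OMD, osteomodulin, was at least 5.66-fold lower, with 1 CRD + Wnt3a array above background, and FMOD, fibromodulin, read -3.38, -3.39 and -5.54 on the CRD arrays and -5.45, -5.41 and -5.75 on the CRD + Wnt3a arrays. The third FMOD value of the CRD arrays lay inside the CRD + Wnt3a range, and the difference was -1.43 (adjusted p = 0.0194), or -2.15 without that array. LUM, lumican, read 2.98, 2.84 and 1.89 and 2.18, 2.16 and 2.22 and its groups overlapped (difference -0.39, adjusted p = 0.256). It was called without the third CRD array, with a difference of -0.72. Of 13 tested genes of the hyaluronan matrix 3 rose and 2 fell, with a median of 0.12. HAPLN1, the link protein that ties proteoglycans to hyaluronan, read -2.54, -2.33 and -5.47 and -5.03, -5.73 and -5.86, high on the first and second CRD arrays and within the CRD + Wnt3a range on the third. Its difference was -2.09 (adjusted p = 0.0176), or -3.10 without the third CRD array, and -1.01 with normexp. The third pair of arrays differed by -0.39. In limma the HAPLN1 call was lost without the first or the second CRD array (adjusted p = 0.159 and 0.16). It was also lost without the second or the third CRD + Wnt3a array (adjusted p = 0.0696 and 0.0673). TNFAIP6, which modifies hyaluronan, was at least 4.12-fold higher, with 2 CRD arrays above background. The hyaluronidase HYAL2 and the hyaluronan receptor CD44 rose by 0.34 and 0.31, though a second CD44 probe with 0.23 did not pass, and HAPLN3 had a difference of -0.40. Of 42 tested matrix genes on these 3 lists 17 were called (40.5%, against 8.29% of all genes tested). Of these 17, 7 stayed called without the first, 8 without the second and 17 without the third CRD array, 13, 9 and 13 without the first, the second and the third CRD + Wnt3a array, and 6 with spike-in scaling.

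Of 13 tested genes of activated fibroblasts 6 rose and 1 fell, with a median of 0.36. The median was 0.16 with normexp and 1.41 over the 9 with deposited values. All 7 stayed called when any single array of the 6 was left out, and 5 with spike-in scaling. LRRC15, a membrane protein of myofibroblasts, read -4.56, -4.96 and -4.11 on the CRD arrays and -2.74, -2.65 and -2.53 on the CRD + Wnt3a arrays. FAP, fibroblast activation protein, read -3.60, -3.55 and -1.75 and -1.09, -0.92 and -0.85. The groups were apart in both genes, and in FAP the third CRD array lay closer to the CRD + Wnt3a arrays. LRRC15 rose by 1.90 (SE 0.24, adjusted p = 0.000216) and FAP by 2.01 (SE 0.32, adjusted p = 0.00129). CTHRC1, a secreted protein of matrix-forming cells, was at least 4.06-fold higher, with 1 CRD array above background. The collagen receptor MRC2 and the cadherin CDH11 rose by 1.40 and 0.93. S100A4, a calcium-binding protein of motile cells, had a difference of -0.61 (adjusted p = 0.00231, and 0.432 with spike-in scaling).

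Of 10 tested smooth muscle contractile genes 5 rose and 0 fell, with a median of 0.37. TAGLN, transgelin, read -0.06, -0.08 and 1.69 on the CRD arrays and 2.76, 2.48 and 2.20 on the CRD + Wnt3a arrays, a rise of 1.97 (adjusted p = 0.00331). ACTG2, smooth muscle gamma actin, read -1.05, -1.16 and 0.09 and 1.14, 1.14 and 0.93, a rise of 1.78 (adjusted p = 0.00201). ACTG2 was not called in the deposited values (difference 1.74, adjusted p = 0.0846). Both genes kept the groups apart, with the third CRD array between. ACTA2, smooth muscle alpha actin, read 3.47, 3.53 and 3.44 and 3.78, 3.70 and 3.76, a small rise of 0.26 (adjusted p = 0.0121) in which the third CRD array was no outlier. Tropomyosin TPM1 and caldesmon CALD1 rose by 0.95 and 0.28. Of the 5 calls, 3 held without the first and 4 without the second CRD array, and 3, 4 and 4 without the first, the second and the third CRD + Wnt3a array.

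Matrix metalloproteinases and their inhibitors rose in 6 of 14 tested genes, with 0 lower and a median of 0.63, or 0.32 with normexp. MMP7, matrilysin of epithelial cells, read 3.42, 3.01 and 4.14 on the CRD arrays and 5.72, 5.69 and 5.80 on the CRD + Wnt3a arrays, a rise of 2.21 (4.63-fold, adjusted p = 0.00019). MMP9, a gelatinase, read -3.40, -3.74 and -2.49 and -1.46, -1.40 and -1.59, a rise of 1.73 (adjusted p = 0.000121). For MMP7 and MMP9 every CRD + Wnt3a value lay above every CRD value, and the third CRD array was the highest of its group. MMP2, the other gelatinase, read -2.60, -2.80 and -2.29 and -1.25, -1.08 and -1.16, a rise of 1.40 (adjusted p = 0.000544). MMP3, stromelysin, was at least 6.87-fold higher, with 2 CRD arrays above background. MMP19 and the inhibitor TIMP2 rose by 0.67 and 0.34. Of the 6 calls, 5 held without the first CRD array, 5 without the second CRD + Wnt3a array and 6 without each of the other arrays.

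Integrins, the receptors that hold cells to matrix, rose in 5 of 17 tested genes and fell in 1, with a median of 0.19. ITGAV read 4.20, 4.28 and 4.83 on the CRD arrays and 5.23, 5.26 and 5.16 on the CRD + Wnt3a arrays, a rise of 0.78 (adjusted p = 0.000672). ITGB3, its partner chain, read -1.63, -1.50 and 0.61 and 1.18, 1.23 and 0.63, a rise of 1.85 (adjusted p = 0.0229). In ITGB3 the third arrays of the groups were nearly equal, while in ITGAV the groups were apart. ITGA5, ITGB4 and ITGA1 rose by 0.98, 0.98 and 0.34, and ITGB8 had a difference of -1.19, or -1.87 without the third CRD array. Of the 6 calls, 2 held without the first and 2 without the second CRD array, and 3, 3 and 4 without the first, the second and the third CRD + Wnt3a array.

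Genes of epithelial-mesenchymal transition were called in 5 of 12 cases, 3 higher and 2 lower, with a median of 0.12. CDH1, E-cadherin of epithelial junctions, read -0.72, -0.69 and -2.21 on the CRD arrays and -2.85, -2.90 and -2.67 on the CRD + Wnt3a arrays, a difference of -1.60 (adjusted p = 0.0128). CLDN1, a claudin of tight junctions, had a difference of -1.29 (adjusted p = 0.0176). The transcription factors SNAI1 and SNAI2, repressors of CDH1, rose by 0.76 and 0.63, and the intermediate filament gene VIM by 0.75. SNAI2 read 1.07, 1.19 and 1.43 and 1.86, 1.89 and 1.80, without overlap (adjusted p = 0.00109). Of these 5 calls, 1 held without the first, 1 without the second and 5 without the third CRD array, 2, 2 and 5 without the first, the second and the third CRD + Wnt3a array, and 1 with spike-in scaling. CDH1 had an adjusted p of 0.113 without the first or the second CRD array, and CLDN1 0.141 and 0.123. Over the fibroblast, muscle, junction, metalloproteinase and integrin lists 28 of 65 tested genes were called (43.1%, against 8.29% of all genes tested), of which 17 stayed called without the first, 19 without the second and 28 without the third CRD array, 20, 20 and 25 without the first, the second and the third CRD + Wnt3a array, and 12 with spike-in scaling.

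**Figure D4:**
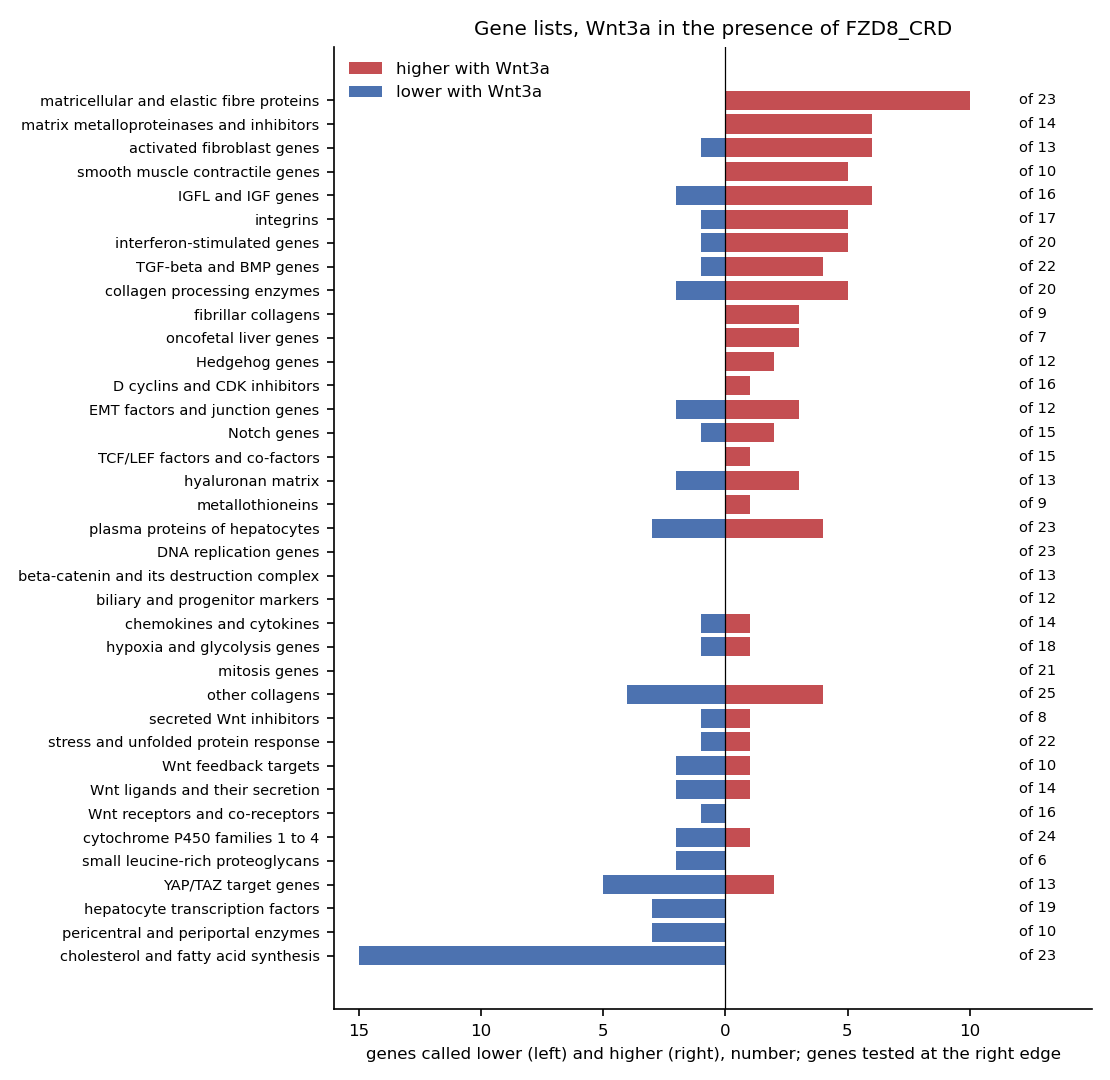
For each of the 37 gene lists, bars to the right give the number of genes called higher and bars to the left the number called lower for CRD + Wnt3a against CRD, with the number tested at the right edge. Cholesterol and fatty acid synthesis had 15 of 23 genes lower, and matricellular and elastic fibre proteins had 10 of 23 higher, beside 3.94% lower and 4.36% higher over all genes tested.

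Plasma proteins made by hepatocytes moved in both directions and differed widely among the CRD arrays. Of 23 tested 4 rose and 3 fell, with a median of 0.38, and of 0.37, 0.63 and -0.01 in the 3 same-numbered pairs. TTR, transthyretin, read 1.55, 1.21 and 5.11 on the CRD arrays and 5.19, 5.30 and 5.23 on the CRD + Wnt3a arrays. APOA1, the main protein of high density lipoprotein, read 0.45, -0.01 and 3.24 and 3.57, 3.48 and 3.28. In both, the first and second CRD arrays were low and the third lay close to the CRD + Wnt3a arrays, just below them. TTR rose by 2.62 (SE 0.72, adjusted p = 0.0283) and APOA1 by 2.22 (SE 0.65, adjusted p = 0.0379), and by 3.86 and 3.23 without the third CRD array. SERPINC1, at -4.06, -4.70 and -0.17 against -0.02, 0.03 and 0.12, and HPX, hemopexin, which rose by 2.13, showed the same order of arrays. Besides APOB, the fibrinogen chain FGA and the complement protein C3 fell, with differences of -1.14 and -0.73, though a second C3 probe with -0.72 did not pass. ALB, albumin, read 7.95, 7.30 and 7.54 and 7.68, 7.64 and 7.56 and its groups overlapped (difference 0.03). Of the 7 calls, 1 held without the first and 1 without the second CRD array, APOB in both cases, and 1 without each CRD + Wnt3a array in turn.

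Of 19 hepatocyte transcription factors 0 rose and 3 fell, with a median of -0.17. FOXA1, a pioneer factor of the liver, read -1.50, -1.70 and -2.61 on the CRD arrays and -3.37, -3.43 and -2.88 on the CRD + Wnt3a arrays, a difference of -1.29 (adjusted p = 0.00529) without overlap. CEBPA and PPARA, regulators of liver metabolism, had differences of -0.67 and -0.50, and a second PPARA probe with -0.25 did not pass. HNF4A, a master regulator of hepatocytes, was dim on all 6 arrays, at -5.08, -5.83 and -4.79 and -5.44, -5.32 and -4.94. Of 24 cytochrome P450 genes 1 rose, CYP2R1 by 0.22, and 2 fell, CYP4B1 with -1.68 and CYP2S1 with -0.67, and the median was -0.13. Of 10 tested pericentral and periportal enzymes 0 rose and 3 fell, with a median of 0.02, and of -0.53 over the 7 with deposited values. GLUL, the pericentral glutamine synthetase and in liver a known target of beta-catenin, read 4.17, 4.01 and 3.51 and 3.09, 3.14 and 3.28, a difference of -0.73 (adjusted p = 0.00162), with all CRD values above all CRD + Wnt3a values. The glutaminase GLS2 and the urea cycle enzyme ASS1 had differences of -0.57 and -0.58, and a second ASS1 probe with -0.50 did not pass. The calls of the transcription factors and of the cytochromes were lost without the first and without the second CRD array, and of the 3 calls for pericentral and periportal enzymes that of GLUL held.

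Of 12 tested biliary and progenitor markers 0 were called by limma and 2 passed an unadjusted p of 0.05, with a median of 0.12. KRT19, a keratin of bile ducts, read 8.14, 8.19 and 8.55 on the CRD arrays and 8.56, 8.55 and 8.39 on the CRD + Wnt3a arrays, and SOX9, a biliary transcription factor, -3.31, -3.40 and -3.98 and -3.84, -4.07 and -3.77. Both overlapped between the groups, and without the third CRD array both were called, with 0.34 and -0.54. Of 7 tested oncofetal liver genes 3 rose and 0 fell, with a median of 0.48: IGF2BP3, the noncoding RNA H19 by 0.84 and alpha-fetoprotein AFP by 0.66. AFP read 0.85, 0.89 and 1.41 and 1.74, 1.79 and 1.59 (adjusted p = 0.0124), without overlap. Over the 6 liver lists 19 of 95 tested genes were called (20%, against 8.29% of all genes tested), of which 3 stayed called without the first, 3 without the second and 19 without the third CRD array, 6, 6 and 9 without the first, the second and the third CRD + Wnt3a array, and 8 with spike-in scaling.

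Cholesterol and fatty acid synthesis held the largest share of falls among the lists: 15 of 23 genes fell and 0 rose, with a median of -0.49, against 3.94% lower and a median of 0.02 over all genes tested. FASN, fatty acid synthase, read 5.32, 5.20 and 4.25 on the CRD arrays and 3.87, 3.93 and 3.99 on the CRD + Wnt3a arrays. DHCR7, the last enzyme of cholesterol synthesis, read 5.64, 5.42 and 4.53 and 4.28, 4.18 and 4.31. FDFT1, squalene synthase, read 4.04, 3.89 and 3.44 and 3.17, 3.11 and 3.19. In all 3 genes the first and second CRD arrays were highest, the third was lower, and the CRD + Wnt3a arrays were below it. FASN had a difference of -0.99 (SE 0.18, adjusted p = 0.00317), DHCR7 of -0.94 (adjusted p = 0.0056) and FDFT1 of -0.63 (adjusted p = 0.00302), lower in 3 of 3 pairs each. The enzymes HMGCS1 and MVD had differences of -0.73 and -0.65, and the regulators SREBF1 and SREBF2 of -0.57 and -0.50. The median of the list was -0.80, -0.69 and -0.08 in the first, the second and the third pair of arrays. Of the 15 genes, 2 stayed called without the first CRD array and 2 without the second, while 19 genes of the list fell without the third, all 15 among them, a setting that called 19.9% of all genes tested. Leaving out the first, the second or the third CRD + Wnt3a array kept 6, 7 and 12, and spike-in scaling in limma kept 0, with 12 of the list at an unadjusted p under 0.05 and a median of -0.58. Without FZD8_CRD 0 genes of this list rose and 1 fell, with a median of -0.21.

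Of 22 tested TGF-beta and BMP genes 4 rose and 1 fell, with a median of -0.03. TGFB3, a ligand, read -2.54, -2.57 and -2.00 on the CRD arrays and -1.26, -1.26 and -1.36 on the CRD + Wnt3a arrays, a rise of 1.08 (adjusted p = 0.0037), without overlap. The ligand TGFB1 and the inhibitory SMAD7 rose by 0.39 and 0.48. INHBB, a chain of activin, read 3.93, 4.08 and 2.88 and 2.52, 2.43 and 2.35, a difference of -1.20 (adjusted p = 0.0013). Here the third CRD array was the lowest of its group and still above the CRD + Wnt3a arrays. Of the 5 calls, 2 held without the first and 2 without the second CRD array, and 3, 3 and 4 without the first, the second and the third CRD + Wnt3a array.

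Of 15 tested Notch genes 2 rose, the ligand JAG1 by 0.75 and the target HEY1 by 0.83, and 1 fell, HEYL with -1.77; their median was 0.09. Of 12 tested Hedgehog genes 2 rose, the ligand IHH by 1.04 and the factor GLI1 by 0.80, with a median of 0.24. IHH read 0.96, 0.89 and 2.18 on the CRD arrays and 2.31, 2.41 and 2.43 on the CRD + Wnt3a arrays, with the third CRD array near the CRD + Wnt3a arrays. Of 13 tested targets of YAP/TAZ, co-activators of the Hippo pathway, 2 rose and 5 fell, with a median of -0.26. Tissue factor F3 and PTPN14 rose by 1.24 and 0.35, 1 further PTPN14 probe with 0.41 not passing. AMOTL2, which holds YAP in the cytoplasm, read 5.00, 4.99 and 4.15 and 3.96, 4.14 and 3.91, a difference of -0.71 (adjusted p = 0.00695). FJX1, NUAK2, AXL and AJUBA had differences of -0.76, -0.73, -0.40 and -0.26. Over the IGFL/IGF, TGF-beta, Notch, Hedgehog and YAP/TAZ lists 25 of 78 tested genes were called (32.1%, against 8.29% of all genes tested), of which 5 stayed called without the first, 5 without the second and 24 without the third CRD array, 15, 12 and 15 without the first, the second and the third CRD + Wnt3a array, and 5 with spike-in scaling. None of the Notch, Hedgehog and YAP/TAZ calls held without the first or without the second CRD array.

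Genes of DNA replication and mitosis were not called in the main fit. In limma 0 of 23 DNA replication genes (median -0.01) and 0 of 21 mitosis genes (median -0.34) passed, against 0 and 7 at an unadjusted p under 0.05. MKI67, a marker of cycling cells, read 2.20, 2.24 and 1.78 on the CRD arrays and 1.84, 1.86 and 1.15 on the CRD + Wnt3a arrays (difference -0.46, adjusted p = 0.42). With the slide as a block 2 mitosis genes were lower, and without the third CRD array 11. Of 16 D cyclins and cyclin-dependent kinase inhibitors with MYC genes 1 rose, MYCN by 1.37, with a median of -0.08. With the slide as a block 1 gene of this list was higher and 3 were lower. Interferon-stimulated genes rose in 5 of 20 cases and fell in 1, with a median of 0.16: OASL, IFI44, IRF9, USP18 and ISG15 by 0.79, 0.45, 0.45, 0.26 and 0.24, and IFIH1 with -0.37. ISG15 read 4.63, 4.65 and 4.86 and 4.94, 5.03 and 4.89, a small shift with the third CRD array just below the CRD + Wnt3a arrays. Of 14 tested chemokines and cytokines CXCL3, a neutrophil attractant, rose by 0.85 and IL18 fell with -0.97 (median 0.15). Of 18 hypoxia and glycolysis genes PFKFB4 rose by 0.51 and the vessel peptide ADM fell with -0.64 (median -0.04). Of 22 stress and unfolded protein response genes JUN rose by 0.44 and the heat shock gene HSPA1B fell with -0.49 (median -0.13). Of 9 tested metallothioneins MT1F rose by 0.33 (median -0.11). Over these lists 14 of 143 tested genes were called (9.79%), near the 8.29% of all genes tested. The interferon-stimulated list held 6 of the 14, of which 0 stayed called in limma without the first CRD array and 0 without the second, with 9 and 10 of the list at an unadjusted p under 0.05. Of the 14 calls, 2 held without the first, 2 without the second and 14 without the third CRD array, 4, 4 and 5 without the first, the second and the third CRD + Wnt3a array, and 0 with spike-in scaling in limma, where 9 of the tested genes had an unadjusted p under 0.05.

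The same dose of Wnt3a without FZD8_CRD, measured on 6 other arrays, called 1381 genes (5.6%), 738 higher (2.99%) and 643 lower (2.61%). With spike-in scaling, where the median of all genes was -0.381, 22 were higher and 284 lower, so the balance of directions depends on the scaling. Of the genes higher with Wnt3a in FZD8_CRD, 236 were also higher without it (22% of 1074 and 32% of 738), and 154 were lower in both (15.9% of 970 and 24% of 643). In opposite directions 1 gene was called each way, HAPLN1 being the gene that fell with FZD8_CRD and rose without. The call of the HAPLN1 fall was lost without the first or the second CRD array. It was also lost without the second or the third CRD + Wnt3a array. Without the first, the second or the third untreated array the count of genes called without FZD8_CRD was 396, 408 and 2803, and without those of Wnt3a alone 1144, 180 and 3188. With the slide as a block it was 2824. Across 24643 genes the responses correlated at r = 0.36. Among the lists, fibrillar collagens had 5 genes higher without FZD8_CRD, activated fibroblast genes 7 higher and 1 lower, matricellular proteins 6 higher, metalloproteinases 5 higher and TCF/LEF factors 4 higher. For plasma proteins, where 4 rose and 3 fell with FZD8_CRD, 0 were called without it by limma, 10 passed an unadjusted p of 0.05 and the median was -0.94. Their number of calls is not a test of the difference.

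The test of the difference between the responses with and without FZD8_CRD called 18 genes (0.073%), 5 with a larger value in FZD8_CRD and 13 with a smaller one, and 3129 genes passed an unadjusted p of 0.05. With spike-in scaling, where the median of all genes was 0.311, 31 were larger and 2 smaller, so this balance turned round. HAPLN1 read -5.07, -4.41 and -4.09 on the untreated arrays and -2.59, -1.65 and -2.15 with Wnt3a alone, beside the values with FZD8_CRD of -2.54, -2.33 and -5.47 and -5.03, -5.73 and -5.86. Wnt3a alone thus raised it above the untreated arrays by 2.39 (adjusted p = 0.012), and the responses differed by -4.48 (adjusted p = 0.0259). PI15, a secreted protease inhibitor, was at the floor or near it on all 6 arrays with FZD8_CRD, while Wnt3a alone raised it at least 8.28-fold (2 untreated arrays above background). The difference of its responses was called (adjusted p = 0.0259), but no size is given since the floor sets it. LUM read 2.24, 2.77 and 2.74 untreated and 3.48, 3.55 and 3.83 with Wnt3a alone, and the responses differed by -1.42 (adjusted p = 0.0468). NOG, the BMP antagonist noggin, read -2.56, -2.44 and -3.29 and -3.25, -3.24 and -3.14 with FZD8_CRD, where the groups overlapped, and -2.95, -2.78 and -2.90 and -1.98, -1.53 and -2.10 without, where they did not, and the responses differed by -1.45 (adjusted p = 0.0399). NALCN, a sodium leak channel, was at least 4.66-fold lower with Wnt3a in FZD8_CRD, with 0 CRD + Wnt3a arrays above background, and the difference of its responses was called (adjusted p = 0.00912), with a size set in part by the floor.

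The other called genes with a symbol were the potassium channel KCNJ2, the oxidoreductase NXN, the glutamate transporter SLC1A3, the sulfate transporter SLC26A2 and the nucleoside transporter SLC29A3, with smaller values in FZD8_CRD, and DOCK2 and TECTB with larger ones. DOCK2, an activator of RAC in leukocytes, was at least 2.99-fold higher with Wnt3a in FZD8_CRD (1 CRD array above background) and TECTB, beta-tectorin, at least 2.68-fold (1 array). Both passed the filter through the CRD + Wnt3a arrays alone among the groups compared, and neither stayed called for the difference with another floor. The filter on the 6 arrays asks for signal well above background on all 6. Their probes fail it by that rule, so it did not test them. Of the 18 genes, 3 stayed called without the first, 0 without the second and 18 without the third CRD array, 6, 0 and 7 without the first, the second and the third CRD + Wnt3a array, 4, 2 and 18 without those of the untreated group, and 5, 6 and 18 without those of Wnt3a alone. With the slide as a block 149 genes were called, all 18 among them. KRT4, INHBB, IGFBP5 and CYP2S1 were then called too, with adjusted p of 0.0449, 0.0335, 0.0415 and 0.0442. Of the 18, 17 stayed called with quantile normalization, but 6 with normexp, 6 with another floor, 4 with the filter on the 6 arrays, 3 with the deposited values and 3 with spike-in scaling. Genes that fail that filter or lack a deposited value, such as DOCK2, were not tested in these settings and count here as lost. In limma the whole test called 0 genes without the second CRD array and 0 without the second CRD + Wnt3a array, with 2021 and 2571 genes at an unadjusted p under 0.05, and 1911 without the third CRD array. A fit on the 12 arrays compared called 0, with 1789 at an unadjusted p under 0.05. AXIN2, LEF1, IGFL1, IGFL2 and COL1A1 were not among the 18, with adjusted p of 0.572, 0.0811, 0.194, 0.922 and 0.54.

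**Figure D5:**
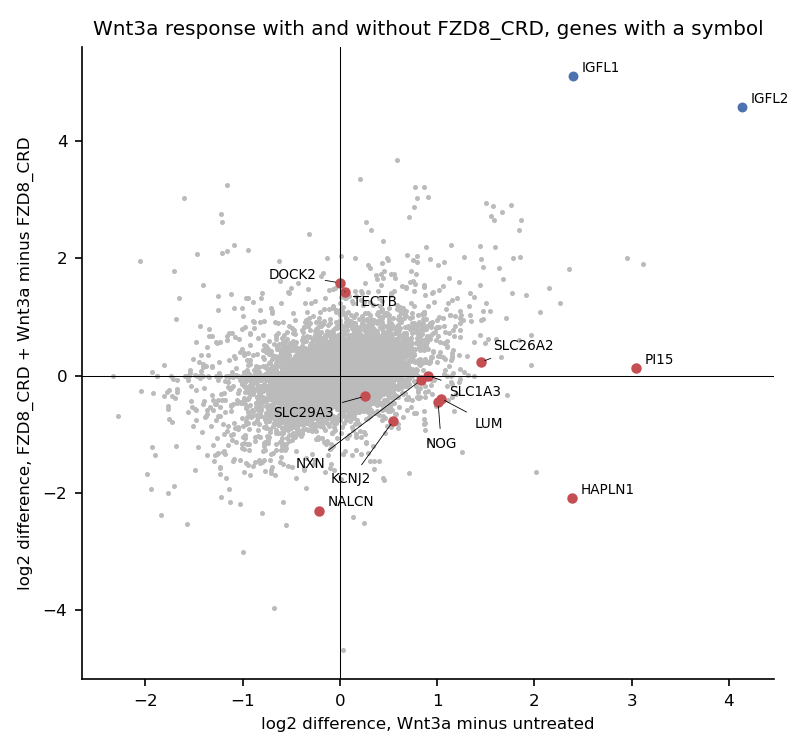
Each point is 1 of 15997 genes with a symbol, with the log2 difference of Wnt3a minus untreated on the x axis and of CRD + Wnt3a minus CRD on the y axis; the 12 genes with a symbol called for a difference of the responses are red and IGFL1 and IGFL2 blue. The positions of DOCK2, TECTB, PI15 and NALCN are set in part by the floor. HAPLN1 lay at 2.39 and -2.09, and IGFL2 at 4.14 and 4.58.

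Just inside the threshold were BSN and L3MBTL3, both with an adjusted p of 0.0499, and just outside it IGF1R and LRIG3, with 0.05 and 0.0501. With the slide as a block IGF1R and LRIG3 were called (adjusted p = 0.025 and 0.0192). Of 4839 genes with several kept probes, 463 had some probes called and others not, and 0 had probes called in opposite directions.

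The groups had 3 arrays, and the third CRD array differed from the other two, being nearer to the CRD + Wnt3a mean for 70.3% of all genes tested with complete values, so that sizes and counts depend on whether it is used. Calls rest on a spread estimated over all 24 arrays. Each condition kept its position on the 3 slides, so position and treatment cannot be told apart. Scaling to the 75th percentile reports changes relative to the array, and spike-in scaling kept 244 of 2044 calls. Signals of different probes are not on a common scale, so the brightest marker and the summed marker signals do not give shares of cells, and protein was not measured.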

How the data were processed

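RNA of HepaRG cultures was measured on 24 one-colour (Cy3) arrays, 3 for each of 8 conditions. Per the file headers, Agilent Feature Extraction read each scan, and the deposited gProcessedSignal is a linear intensity, corrected for background and spatial trend inside the array but not scaled between arrays. A second table deposited by the authors holds log2 ratios to the 75th percentile for 25443 probes, each probe having its median over the arrays at 0, and served as an alternative. Such centred values hold no signal level, so the trend of the spread with signal level used in the fit was not available there. A call lost with the deposited values alone can thus come from the fit. Here gProcessedSignal was divided by the 75th percentile of its array and set on a log2 scale with a floor of -6.13. Spots marked as outliers were left out. Of 50683 probes 28174 received a symbol through RefSeq transcripts. A probe entered when some condition had it well above background on its 3 arrays (31062 probes), and the brightest probe stood for its gene (24643 genes, 15997 with a symbol).

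All 24 arrays entered limma (3.58.1, R 4.3.3) with 1 mean per condition and a trended spread, so that 1 estimate of the spread is shared; p-values are two-sided and Benjamini-Hochberg adjusted over all 24643 genes, and called means an adjusted p under 0.05. A group left with 2 arrays was assumed to vary like the others. The fit was tested on simulated data with independent errors. These data held no slide effect and no deviating array, so the simulation does not cover either. Replicates of a number share a slide: residuals of the same-numbered CRD and CRD + Wnt3a arrays correlated across genes at r = 0.49, 0.35 and 0.33, and 82 of 84 same-numbered pairs of the series lay over 0.1. The replicate block was an alternative, as were leaving out each array or replicate, quantile normalization, normexp background correction, the deposited values, spike-in scaling, no filter or a filter on the 6 arrays, another floor, the mean of the probes, marked spots kept, only the conditions compared, array weights, no moderation and the fold thresholds of the study.

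Named genes were, among those with a symbol, the 12 largest rises and falls among called genes that moved the same way in the 3 same-numbered pairs and were well above background on the 6 arrays; the up to 5 called members of each list with the largest change in each direction, and the genes that define the lists; genes called for the difference of the responses; the 5 largest gaps above and below for the third CRD array; and the 2 genes nearest to the threshold on either side. CDH11, IGFBP3, THBS1, THBS2, FN1, FBN1, SPARC, TIMP2, SREBF1, SREBF2 and SP5 fell outside the rule and were named after their values were seen. Members and lists were chosen with earlier results of these data known.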

Additional observations from a re-analysis of the deposited data

Results flagged for a closer look

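The response to Wnt3a differed with FZD8_CRD present from that without it for 18 genes, by a test of the difference of the 2 responses, which have no array in common. With the slide as a block that test called 149 genes, all 18 among them. Among the 18, 12 have a symbol, and of these the log2 response was larger in FZD8_CRD for DOCK2 by 1.58 and for TECTB by 1.38. It was smaller for 10 genes, with differences of -4.48 for HAPLN1, -2.91 for PI15, -2.09 for NALCN, -1.45 for NOG, -1.42 for LUM, -1.33 for KCNJ2, -1.22 for SLC26A2, -0.91 for NXN, -0.9 for SLC1A3 and -0.61 for SLC29A3. The values of DOCK2, TECTB, PI15 and NALCN are set in part by the floor of -6.13 and are not measured sizes. DOCK2 and TECTB read above background on 1 array of FZD8_CRD alone and on 0 arrays without FZD8_CRD, PI15 on 0 of the 6 arrays with FZD8_CRD, and NALCN on 0 arrays of FZD8_CRD with Wnt3a. DOCK2, TECTB and PI15 were not called with another floor. The filter on the 6 arrays asks for signal well above background on all 6. The probes of DOCK2, TECTB, PI15 and NALCN fail it by that rule, so it did not test them. KCNJ2, LUM, SLC1A3 and SLC29A3 were not called with that filter or with another floor, and NOG not with that filter. KCNJ2, LUM, SLC1A3, SLC29A3 and NOG were well above background on all arrays compared. Loss of the call with another floor was thus not limited to the dim genes. The other 6 of the 18 genes have no symbol. Their causes were not tested.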

How the results depend on the processing

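The count of genes called for Wnt3a in FZD8_CRD, 2044, stayed within 1.5 times under quantile normalization, normexp background correction, the deposited values, no filter, the filter on the 6 arrays, another floor, the mean of the probes, marked spots kept, no moderation and the thresholds of the study, at 1398 to 2055. It moved to 244 with spike-in scaling, 0 on the 6 arrays alone and 7402 with array weights. The count without FZD8_CRD, 1381, moved to 306 with spike-in scaling, 848 without a filter, 2 on its own conditions and 3728 with array weights. The count of genes called for the difference, 18, moved to 11 with normexp, 5 with the deposited values, 33 with spike-in scaling, 40 without a filter, 4 with the filter on the 6 arrays, 6 with another floor, 0 on the conditions compared, 3285 with array weights, 45 without moderation and 731 with the unadjusted p and fold thresholds of the study. These lists need not hold the same genes: of the 18, 6 stayed called with normexp, 3 with the deposited values, 3 with spike-in scaling, 4 with the filter on the 6 arrays and 6 with another floor. Some of the 18 fail that filter by its rule or lack a deposited value, so they were not tested in these settings. On the 6 arrays alone limma gave 4069 genes at an unadjusted p under 0.05, and for the difference 1789.

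With the replicate block, which pairs same-numbered arrays, the 3 counts were 3299, 2824 and 149. With the block and without the third CRD array, a setting chosen after seeing the data, they were 6750, 4248 and 3347. Leaving out 1 array or 1 replicate number gave 0 to 5327 genes for Wnt3a in FZD8_CRD, 6 to 6344 without it and 0 to 2987 for the difference, the highest values without the third replicate; where limma gave 0 without the second replicate, 2131 genes had an unadjusted p under 0.05 for Wnt3a in FZD8_CRD and 633 for the difference.

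Spike-in scaling set the median of all genes at -0.073 for Wnt3a in FZD8_CRD, against 0.018 in the main setting. Without FZD8_CRD it set the median at -0.381, with 22 genes higher and 284 lower against 738 and 643, and for the difference at 0.311, with 31 larger and 2 smaller against 5 and 13. Some list medians moved too, and those named here are examples. With the deposited values, which hold fewer genes, that of pericentral and periportal enzymes moved from 0.02 to -0.53. That of activated fibroblast genes moved from 0.36 to 1.41 with those values and to 0.16 with normexp. With normexp, that of metalloproteinases moved from 0.63 to 0.32 and of small leucine-rich proteoglycans from -0.91 to -0.43. Without the third CRD array, that of the proteoglycans moved to -1.44 and of Wnt ligands from -0.06 to -0.31. With spike-in scaling, that of interferon-stimulated genes moved from 0.16 to 0.07 and of cytochrome P450 genes from -0.13 to -0.23. DKK3 turned to -0.38 without a filter (adjusted p = 1), and SLC1A3 ranged from -0.24 without the third replicate (adjusted p = 0.0355) to 0.19 without the second. The cause was not tested. Signals near background limit the dim genes, whose sizes depend on the floor.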
